A study of Canis lupus familiaris with 4 samples.

Results

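The ADAM and ADAMTS family was examined in carcinoma and control mammary tissue of female dogs. Its members were taken by name, as every gene of the count tables whose symbol starts with ADAM followed by a number, by TS and a number, by TSL or by DEC, which gave 27 of 11277 genes. RefSeq lists 44 dog symbols of this form, and the 17 without a row are not analysed here. Rows named only by an Ensembl identifier, 1148 in all, were not searched. Tissue came from the mastectomies of 6 intact female dogs of several breeds, 5 to 14 years of age, with spontaneous early-stage tumors. The carcinoma libraries, T1 and T2, were made from mammary ductal carcinoma, and the control libraries, C1 and C2, from non-tumor mammary tissue beside the tumors. Each library was a pool of 3 samples, and T1 and C1 came from one set of dogs and T2 and C2 from the other, so the 2 libraries of a group are pools and the spread between single dogs is not seen.

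ADAMs are metalloproteases with a disintegrin domain, most of them anchored in the cell membrane, where the active ones cut the outer parts of growth factors, receptors and adhesion molecules free from the cell. ADAMTS proteases are secreted and carry thrombospondin repeats that hold them in the extracellular matrix, where they cut proteoglycans, trim procollagens or act on fibrillin microfibrils. ADAMTS-like proteins have the repeats without the protease domain. In the mammary gland, ADAM17 is known, from work in mice, for releasing amphiregulin during duct growth.

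The tables hold total counts of 35496260 in T1, 3236218 in T2, 32352002 in C1 and 4027367 in C2. Member counts ranged from 4 to 13598, and 2 members, ADAM18 and ADAMTS7, had fewer than 10 counts in a library. Levels are given as CPM, the share of a gene in the counts of its library on one common scale, after TMM, a correction from the bulk of the genes, and 1 count was worth 0.0286 CPM in T1, 0.297 in T2, 0.0339 in C1 and 0.232 in C2. A CPM level depends on the length of a gene, so levels of different genes are compared only per kilobase of the length in the tables. That length counts introns, so such an order is not one of transcript abundance. Carcinoma was set against control with edgeR's quasi-likelihood test over all genes, without the pairing of the pools, and a gene is called higher or lower when its adjusted p (Benjamini-Hochberg) is under 0.05 and the tissues differ by 1 or more on the log2 scale, which is 2-fold. The smallest two-sided p of an exact permutation test on 2 against 2 libraries is 0.333, so each call rests on the model fitted over all genes. Reads of overlapping genes cannot be told apart in these counts, since the strand setting of the counting is not given. In RefSeq, 13 members overlap another gene, 5 of the called members among them.

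Carcinoma had 2 members higher than control, ADAMTS17 and ADAMTSL3, and 8 lower, ADAM12, ADAM19, ADAMTS1, ADAMTS5, ADAMTS9, ADAMTS15, ADAMTS7 and ADAMTS19. The other 17 were not called. The 10 called members were 37.0% of the family, against 9.86% of all genes, with 7.41% against 4.62% for higher and 29.6% against 5.24% for lower. The median log2 fold change was −0.33 over the members and 0.03 over all genes, and the median absolute log2 fold change was 0.73 over the members and 0.34 over all genes. In 20 members (74.1%) both carcinoma libraries lay on one side of both control libraries, 7 above and 13 below, which was the case for 57.6% of all genes. When the fit took pool as a replicate block, 11 members (40.7%) were called, against 13.9% of all genes. The family was chosen with earlier results of these data known, so these shares describe it and do not test it. The plots of levels and of fold changes show that the aggrecanases all lie to the low side in carcinoma, while the other groups hold members on both sides.

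**Figure D1:**
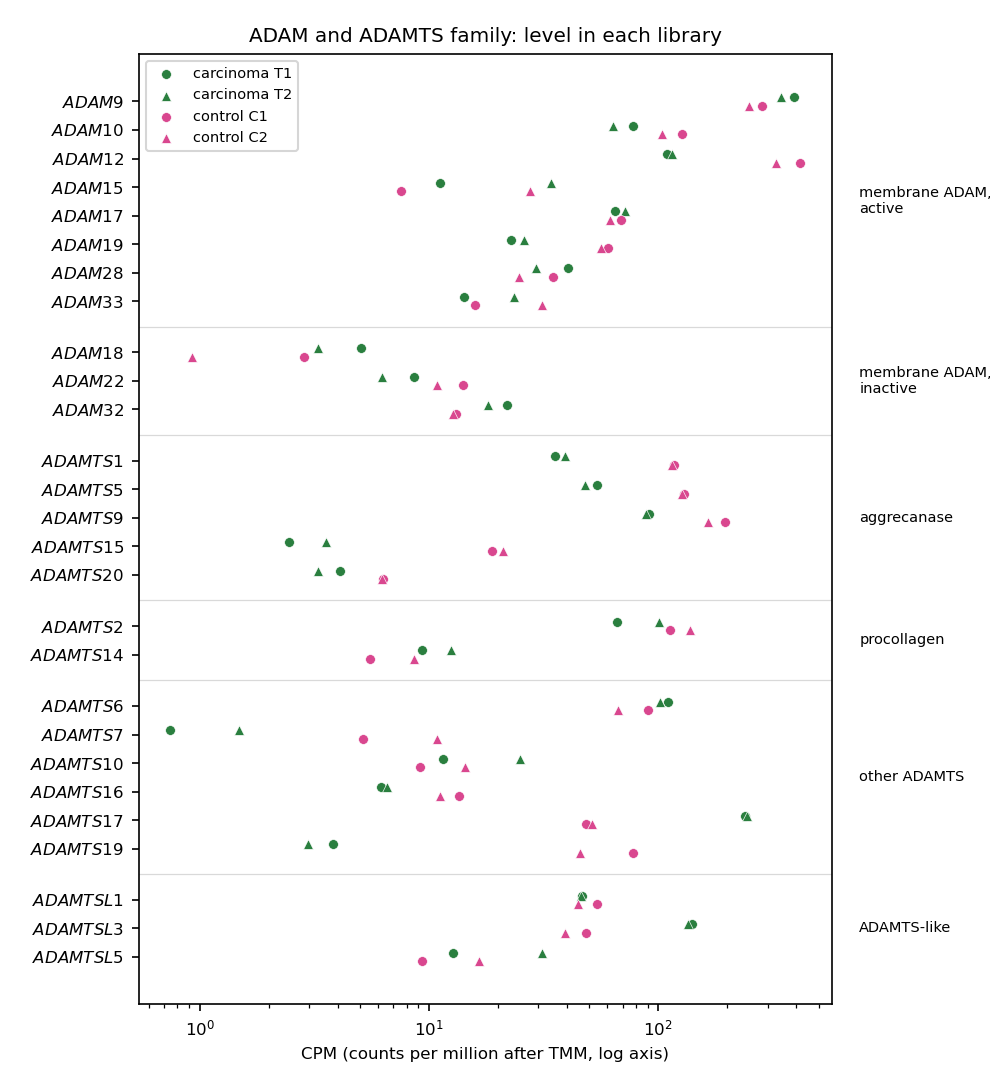
CPM (log axis) of the 27 members in each library, by kind of protein, with carcinoma in green above control in pink, circles for pool 1 and triangles for pool 2. ADAMTS17 lies at 239 and 243 CPM in carcinoma and at 48.3 and 51.5 CPM in control, and ADAMTS19 at 3.81 and 2.97 CPM in carcinoma and at 77.8 and 45.7 CPM in control.

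**Figure D2:**
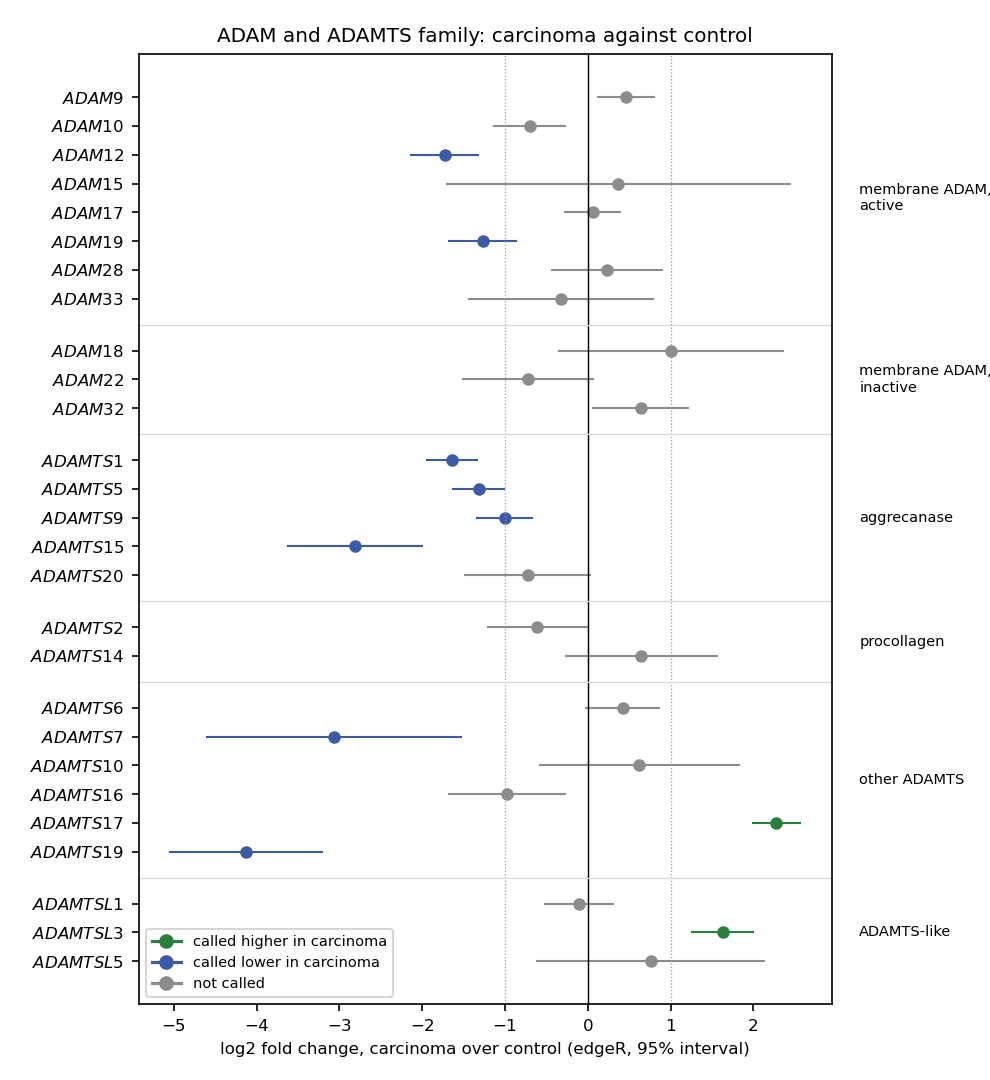
Log2 fold change of carcinoma over control from edgeR for the 27 members, with 95% intervals, colored by call, and dotted lines at the fold change asked of a call. The 2 members called higher lie at 2.28 and 1.63, and the 8 called lower lie between −4.13 and −1.006.

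RNA of cell type markers also differed between the groups. For comparison, 4.62% of all genes were called higher and 5.24% lower. The epithelial marker EPCAM was detected in all libraries, at 180 and 147 CPM in carcinoma and 252 and 155 CPM in control. All 9 measured striated muscle markers were lower in carcinoma, with summed levels of 25.8 and 30.6 CPM in carcinoma against 1968 and 3084 CPM in control, and MB, MYL2, MYLPF and TNNT3 had no count in T2. Among lymphatic endothelial markers 4 of 5 were lower (summed 117 and 119 CPM in carcinoma, 881 and 701 CPM in control), and among blood endothelial markers 5 of 7 (335 and 330.1 CPM in carcinoma, 729 and 744 CPM in control). Of 8 fibroblast markers 4 were lower (2783 and 3603 CPM in carcinoma, 7377 and 8221 CPM in control), whereas of 11 chondrocyte markers 6 were higher (2639.9 and 2880.4 CPM in carcinoma, 373.0 and 372.5 CPM in control). The monocyte and macrophage list had 1 of 8 markers lower, the T and NK cell list 2 of 4, and the pericyte list 1 of 6. The luminal list had 3 of 8 lower, and no marker of the adipocyte (3 measured), basal and myoepithelial (5) or B and plasma cell (2) lists was called. With the replicate block, all 4 T and NK cell markers and 6 of 8 fibroblast markers were lower, COL1A1 and LUM being gained, and 2 basal, 1 adipocyte and 1 pericyte marker higher. The part of these cell types in the changes of the family was not tested. In bulk tissue, fewer cells of a type and less RNA per cell cannot be told apart.

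Among the aggrecanases and versicanases, the ADAMTS proteases that cut aggrecan and versican, 4 of 5 measured members fell in carcinoma and none rose (edgeR; 0 rose at an unadjusted p under 0.05 or by DESeq2, since all 5 fold changes were negative). The median log2 fold change of these 5 was −1.32. ADAMTS1, a secreted protease that cuts versican and aggrecan, had 35.5 and 39.3 CPM in carcinoma, against 117 and 115 CPM in control. The pools of each tissue lay close together and the groups far apart, at −1.64 on the log2 fold scale (standard error 0.12, adjusted p = 0.00263). ADAMTS5, the main aggrecanase of mouse cartilage, had 54.3 and 47.9 CPM in carcinoma and 129 and 127 CPM in control. Here too the groups did not overlap, and the log2 fold change was −1.32 (standard error 0.12, adjusted p = 0.00413). ADAMTS1 and ADAMTS5 are neighbors in the dog genome by RefSeq, with no protein-coding gene between them. CYYR1 on the other side of ADAMTS1, with a log2 fold change of −0.67, and N6AMT1 beyond ADAMTS5, with −0.13, were not called.

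ADAMTS15, a close relative of ADAMTS1, showed the steepest fall of the aggrecanases. It had 2.46 and 3.57 CPM in carcinoma (86 and 12 counts), against 18.9 and 21.1 CPM in control (558 and 91 counts). Carcinoma libraries were thus at about the same low level, and the log2 fold change was −2.81 (standard error 0.31, adjusted p = 0.00665). ADAMTS9, which cuts versican and carries a GON domain at its end, had 91.1 and 88.0 CPM in carcinoma and 195 and 165 CPM in control. Its fall, −1.006 on the log2 fold scale (standard error 0.13, adjusted p = 0.00980), lay at the limit set for a call, and without C1 or without T2 it was −0.93 and −0.98, below that limit, with adjusted p-values of 0.0265 and 0.0158. ADAMTS20, the member closest in structure to ADAMTS9, had 4.09 and 3.27 CPM in carcinoma and 6.30 and 6.26 CPM in control. Both carcinoma libraries were below both controls, but it was not called (log2 fold change −0.73, 95% interval −1.48 to 0.03, adjusted p = 0.188). Summed over the 5 genes, the aggrecanases took 187 and 182 CPM in carcinoma and 466 and 434 CPM in control.

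Among the remaining ADAMTS proteases, ADAMTS17 and ADAMTS19, which are each other's closest relatives in the family, moved in opposite directions. ADAMTS17, in which a mutation causes lens luxation in terrier breeds of dog, had 239 and 243 CPM in carcinoma and 48.3 and 51.5 CPM in control. The libraries of each tissue were nearly equal, and carcinoma was 4.85-fold higher (log2 fold change 2.28, standard error 0.11, adjusted p = 0.00182). ADAMTS19, known from human heart valve disease, had 3.81 and 2.97 CPM in carcinoma (133 and 10 counts) and 77.8 and 45.7 CPM in control (2297 and 197 counts). It fell by 4.13 on the log2 scale, the control level being 17.5-fold that of carcinoma (standard error 0.36, adjusted p = 0.00379). Within a library, ADAMTS17 had 62.9 and 81.8 counts for each count of ADAMTS19 in T1 and T2, against 0.621 and 1.13 in C1 and C2, a ratio that does not depend on the scaling of the libraries. In RefSeq both genes overlap long noncoding RNA genes, and the part of these in the counts was not tested. Among all genes called in the same direction, ADAMTS19 had the 60th strongest fall of 591 and ADAMTS17 the 146th strongest rise of 521.

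ADAMTS7, a protease that cuts cartilage oligomeric matrix protein, was low everywhere and fell in carcinoma. It had 0.744 and 1.49 CPM in carcinoma (26 and 5 counts) and 5.15 and 10.9 CPM in control (152 and 47 counts). The groups did not overlap, although pool 2 was about as far above pool 1 in both tissues, and the log2 fold change was −3.06 (standard error 0.60, adjusted p = 0.0326). Without T1 the log2 fold change was −2.40 and the adjusted p 0.116, so the call is lost when only the 5 counts of T2 stand for carcinoma. ADAMTS16, known from blood pressure studies in the rat, had 6.15 and 6.54 CPM in carcinoma and 13.5 and 11.1 CPM in control. Both carcinoma libraries were lower, but it was not called without the pairing (log2 fold change −0.97, adjusted p = 0.0853), whereas with the replicate block it was (log2 fold change −1.07, adjusted p = 1.70e-09). The block left 1 residual degree of freedom, against 2 without it. The fitted spread between libraries (common dispersion) was 0.0022 with the block and 0.051 without it. The small p-values of the block fit therefore do not measure the spread between single dogs.

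ADAMTS6 and ADAMTS10, a pair of related proteases that act on fibrillin microfibrils, were not called. ADAMTS6 had 110 and 102 CPM in carcinoma and 90.6 and 67.0 CPM in control, with carcinoma above control in both pools (log2 fold change 0.42, 95% interval −0.03 to 0.86, adjusted p = 0.197). ADAMTS10, mutated in inherited glaucoma of beagles, had 11.6 and 25.0 CPM in carcinoma and 9.11 and 14.4 CPM in control. Its groups overlapped, since T1 lay below C2, a pool of other dogs (log2 fold change 0.62, 95% interval −0.58 to 1.82, adjusted p = 0.443). Within the pairs, carcinoma was above control, at log2 ratios of 0.34 in pool 1 and 0.80 in pool 2.

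Of the ADAMTS-like genes, whose products lack the protease domain, ADAMTSL3 rose and ADAMTSL1 and ADAMTSL5 were not called. ADAMTSL3, which encodes punctin-2, had 139.6 and 134 CPM in carcinoma and 48.6 and 39.2 CPM in control. Carcinoma was 3.09-fold higher, far beyond the gap between the pools (log2 fold change 1.63, standard error 0.14, adjusted p = 0.00399). In RefSeq, ADAMTSL3 overlaps the protein-coding gene SAXO2 and a long noncoding RNA gene, and the part of these in its counts was not tested. ADAMTSL1, which encodes the related punctin-1, had 46.5 and 45.8 CPM in carcinoma and 54.3 and 44.5 CPM in control. These values overlapped (log2 fold change −0.11, 95% interval −0.51 to 0.30, adjusted p = 0.703), and a difference of 2-fold lies outside that interval. Each count of ADAMTSL1 was matched by 3.0 and 2.93 counts of ADAMTSL3 in T1 and T2 and by 0.895 and 0.880 in C1 and C2. ADAMTSL5 had 12.7 and 31.2 CPM in carcinoma and 9.31 and 16.5 CPM in control, with overlap (log2 fold change 0.76, 95% interval −0.62 to 2.13, adjusted p = 0.416). Its log2 ratios within the pairs were 0.44 in pool 1 and 0.92 in pool 2. Its length in the tables is 9.50 times the RefSeq span, so its row may hold reads from outside the gene.

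Among the 8 measured membrane ADAMs with an active protease, ADAM12 and ADAM19 fell and none rose by edgeR. ADAM9 alone had a positive fold change at an unadjusted p under 0.05 (edgeR), and DESeq2 called none of the 8 higher. Their median log2 fold change was −0.13. ADAM12, or meltrin alpha, known for its part in muscle cell fusion and as a gene of activated stromal cells, had 109 and 115 CPM in carcinoma and 415 and 326 CPM in control. Every carcinoma library was thus lower than every control library, and the log2 fold change was −1.73 (standard error 0.16, adjusted p = 0.00422). ADAM19, or meltrin beta, which sheds neuregulin in mouse cells, had 22.8 and 25.9 CPM in carcinoma and 60.1 and 56.3 CPM in control. The groups did not overlap, and the log2 fold change was −1.27 (standard error 0.16, adjusted p = 0.00886). The neighbor of ADAM12 in RefSeq, FANK1, was also lower in carcinoma, at 2.52 and 1.78 CPM in carcinoma and 16.7 and 13.7 CPM in control (log2 fold change −2.74, adjusted p = 0.00800), and was named after its values had been seen.

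ADAM10 and ADAM17, the main sheddases of the cell surface, were not called. ADAM10, which cuts Notch receptors and E-cadherin, had 77.8 and 63.3 CPM in carcinoma and 127 and 104 CPM in control. Both carcinoma libraries were below both controls, with a log2 ratio of −0.71 in each pool, and the adjusted p was 0.0559 (log2 fold change −0.70, 95% interval −1.13 to −0.28). ADAM17, which releases TNF and ligands of the EGF receptor, had 64.5 and 71.7 CPM in carcinoma and 68.7 and 61.4 CPM in control. Its libraries overlapped, and the 95% interval of the log2 fold change of 0.06 ran from −0.28 to 0.39 (adjusted p = 0.811), and a 2-fold change in either direction lies outside it. ADAM9, a membrane protease with a broad range of substrates, had 389 and 343 CPM in carcinoma and 284 and 248 CPM in control. Carcinoma was above control in both pools, by 0.45 and 0.47 on the log2 scale, and it was not called (log2 fold change 0.46, standard error 0.13, adjusted p = 0.0926).

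ADAM15, ADAM28 and ADAM33 had overlapping groups, although each had log2 ratios of 1 sign within the pairs. In pool 1 and pool 2 these were 0.55 and 0.31 for ADAM15, 0.22 and 0.25 for ADAM28, and −0.17 and −0.40 for ADAM33. ADAM15, whose human protein carries an integrin-binding site in its disintegrin domain, differed more between pools than between tissues, with 11.1 and 34.2 CPM in carcinoma and 7.59 and 27.6 CPM in control (log2 fold change 0.37, 95% interval −1.70 to 2.44, adjusted p = 0.80). ADAM28, known from lymphocytes, had 40.4 and 29.4 CPM in carcinoma and 34.7 and 24.8 CPM in control (log2 fold change 0.23, adjusted p = 0.608). ADAM33, known as a gene of human asthma, had 14.2 and 23.5 CPM in carcinoma and 15.9 and 31.1 CPM in control (log2 fold change −0.33, adjusted p = 0.665). Its length in the tables is 6.22 times the RefSeq span, and in RefSeq it overlaps SIGLEC1, a macrophage gene that is not analysed here, so its counts are uncertain.

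The membrane ADAMs without an active protease were low and none of the 3 was called (edgeR; 1, ADAM32, had an unadjusted p under 0.05, and DESeq2 called none). ADAM22, a receptor of the secreted protein LGI1 on neurons, had 8.64 and 6.25 CPM in carcinoma and 14.0 and 10.9 CPM in control, with carcinoma lower in both pools (log2 fold change −0.72, adjusted p = 0.206). ADAM32, known mainly from testis, had 22.01 and 18.1 CPM in carcinoma and 13.2 and 12.7 CPM in control, with carcinoma above (log2 fold change 0.64, adjusted p = 0.141). ADAM18, a gene of sperm in mice, had 5.04 and 3.27 CPM in carcinoma (176 and 11 counts) and 2.84 and 0.927 CPM in control (84 and 4 counts). The groups did not overlap, and the log2 fold change was 1.00 (95% interval −0.35 to 2.35, adjusted p = 0.285). ADAM18 and ADAM32 overlap other RefSeq genes, and reads of these may be counted with them.

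The procollagen N-peptidases, which remove the propeptide at the start of fibrillar procollagens, lay on opposite sides and were not called. ADAMTS2, whose loss causes fragile skin in cattle and humans, had 66.1 and 100.2 CPM in carcinoma and 113 and 138 CPM in control. Carcinoma was lower in both pools (log2 fold change −0.61, 95% interval −1.21 to −0.01, adjusted p = 0.171). ADAMTS14, which has the same activity, had 9.33 and 12.5 CPM in carcinoma and 5.52 and 8.58 CPM in control, with carcinoma higher in both pools (log2 fold change 0.65, 95% interval −0.27 to 1.56, adjusted p = 0.308). For each count of ADAMTS2 there were 0.141 and 0.125 counts of ADAMTS14 in T1 and T2 and 0.0488 and 0.0622 in C1 and C2.

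As a whole, the family took 0.157% and 0.168% of all counts in carcinoma and 0.181% and 0.191% in control, while its make-up differed. By share of the family's summed CPM, which weights long genes, the first 3 genes were ADAM9, ADAMTS17 and ADAMTSL3 in both carcinoma libraries (48.1% and 44.4% together), and ADAM12, ADAM9 and ADAMTS9 in both controls (45.1% and 41.4%). ADAMTS17 alone took 15.0% of it in each carcinoma library, against 2.43% and 2.88% in control. ADAM12 took 6.85% and 7.09% in carcinoma, against 20.9% and 18.3% in control. Per kilobase of the length in the tables, a scale that counts introns, ADAMTS1 had the highest mean level in both tissues, at 3.94 CPM per kilobase in carcinoma and 12.2 in control. ADAM9 came next in carcinoma (2.61) and after ADAMTS5 in control (1.90), where ADAMTS5 had 3.17, against 1.26 in carcinoma. On that scale ADAMTS17 ranked 8 of 27 in carcinoma and 19 in control, and ADAMTS19 ranked 27 in carcinoma and 15 in control. The length used was 9489 bases for ADAMTS1 and 140216 for ADAM9, so this order also depends on the span of each gene.

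**Figure D3:**
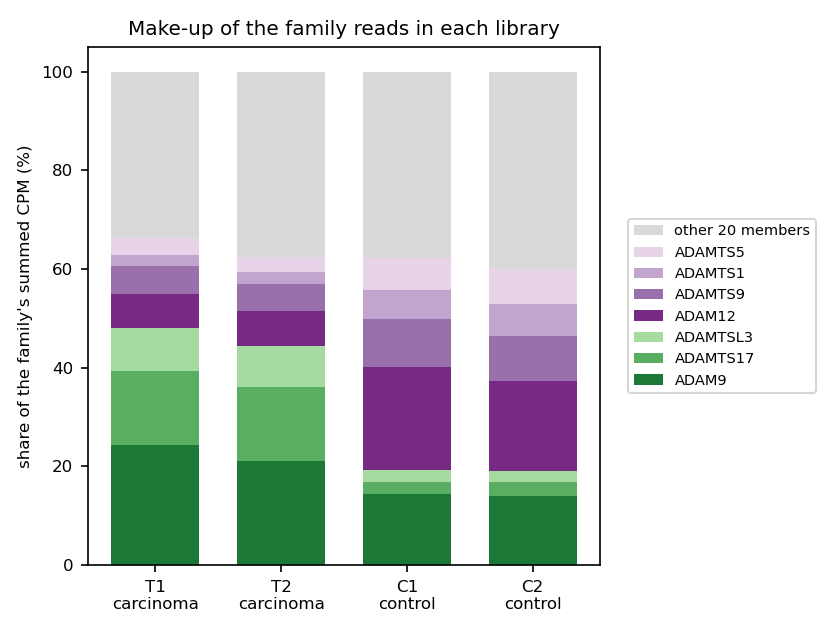
Share (%) of the family's summed CPM taken by 7 members and by the other 20 together in each library, with carcinoma on the left and control on the right. The green parts (ADAM9, ADAMTS17 and ADAMTSL3) reach 48.1% and 44.4% in carcinoma, where ADAMTS17 has 15.0% in each library, against 2.43% and 2.88% in control.

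Carcinoma differed from control in the same direction in both pairs of pools for 25 of 27 members, all called members among them. The exceptions were ADAM17, with log2 ratios of −0.09 in pool 1 and 0.22 in pool 2, and ADAMTSL1, with −0.22 and 0.04. For the 20 members whose groups did not overlap, all called members among them, the same direction follows from the lack of overlap. The share of all genes with the same direction was not computed, and 57.6% of all genes had groups that did not overlap. Closeness of the pools among called members is also favored by the call, which weighs the difference against the spread between libraries. Among called members the log2 ratios of the pools differed by at most 0.42, the gap of ADAM12 (−1.92 in pool 1 and −1.50 in pool 2). With pool as a block, 24 members (88.9%) reached an adjusted p under 0.05 at any fold, beside 64.1% of all genes. Without the block 10 members did (37.0%), beside 13.9% of all genes. ADAMTS16 was the call gained with the block.

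**Figure D4:**
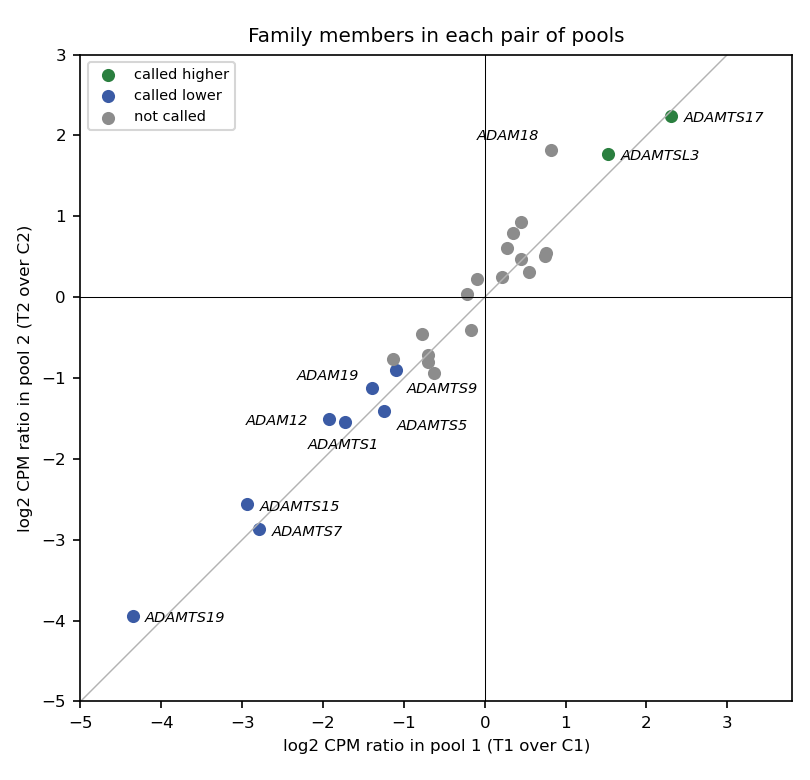
Log2 of T1 over C1 in CPM (x axis, pool 1) against log2 of T2 over C2 (y axis, pool 2) for the 27 members, colored by call, with the line of equal ratios. The called members lie near the line, from ADAMTS19 at −4.35 and −3.94 to ADAMTS17 at 2.31 and 2.24.

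Genes that work with the family were described from lists of its inhibitors, partners and substrates, read from the same fit. Over all genes, 4.62% were called higher and 5.24% lower in that fit. With the replicate block 13.9% were called in either direction. The lists were not tested against these shares. Of 4 measured inhibitor genes, TIMP3 rose and the others were not called, with a median log2 fold change of 0.04. TIMP3, the tissue inhibitor that acts on ADAM17 and on aggrecanases and binds to the matrix, had 57.9 and 76.1 CPM in carcinoma and 9.85 and 16.9 CPM in control. Carcinoma was several times higher in each pool (log2 fold change 2.37, standard error 0.32, adjusted p = 0.0111). TIMP2 had 31.8 and 47.3 CPM in carcinoma and 29.4 and 41.0 CPM in control and was not called (log2 fold change 0.16, adjusted p = 0.745). TIMP1 and TIMP4 are not analysed here.

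Of 12 measured partners of ADAM10 and ADAM17 and convertases that remove propeptides, 1 rose, 2 fell and 9 were not called, with a median log2 fold change of 0.24. PCSK7, a convertase, rose, with 73.4 and 105 CPM in carcinoma and 28.4 and 44.3 CPM in control (log2 fold change 1.31, adjusted p = 0.0457). The convertase genes PCSK5 and PCSK6 fell, at log2 fold changes of −1.28 (adjusted p = 0.00731) and −1.08 (adjusted p = 0.0393). FURIN, which activates many of the proteases and was chosen after its values were seen, had 32.4 and 89.8 CPM in carcinoma and 18.1 and 40.1 CPM in control, and was not called (adjusted p = 0.320). Of 20 measured substrates shed by membrane ADAMs, 1 rose, 3 fell and 16 were not called, while with the replicate block 2 rose and 5 fell. Of all genes, 9.86% were called in either direction without the block and 13.9% with it. The median of the 20 was 0.36. AREG and EREG, ligands of the EGF receptor released by ADAM17, fell, AREG having 21.9 and 17.0 CPM in carcinoma and 114 and 98.5 CPM in control (log2 fold change −2.42, adjusted p = 0.00277), and EREG a log2 fold change of −1.70 (adjusted p = 0.00658). ERBB4, a neuregulin receptor, fell at −1.07 (adjusted p = 0.0128), and JAG1, a Notch ligand, rose at 1.02 (adjusted p = 0.00596). JAG1 lay at the limit set for a call, and DESeq2, with a log2 fold change of 0.997, did not call it.

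Of 5 measured genes for proteoglycan substrates, their link proteins and COMP, 2 rose and 3 were not called, with a median log2 fold change of 1.44, and with the replicate block 3 rose. ACAN, which encodes aggrecan, had 579.6 and 845 CPM in carcinoma and 3.73 and 5.80 CPM in control (log2 fold change 7.34, standard error 0.34, adjusted p = 0.00182). HAPLN1, a link protein gene, rose by 4.75 on the log2 scale (adjusted p = 0.00196). VCAN, which encodes versican, had 1192 and 987 CPM in carcinoma and 689.5 and 494 CPM in control. Both carcinoma libraries were above both controls without a call (log2 fold change 0.88, adjusted p = 0.0536), and without C1 or without T2 it was called, at 1.09 and 1.009. ACAN and HAPLN1 are also in the chondrocyte list.

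**Figure D5:**
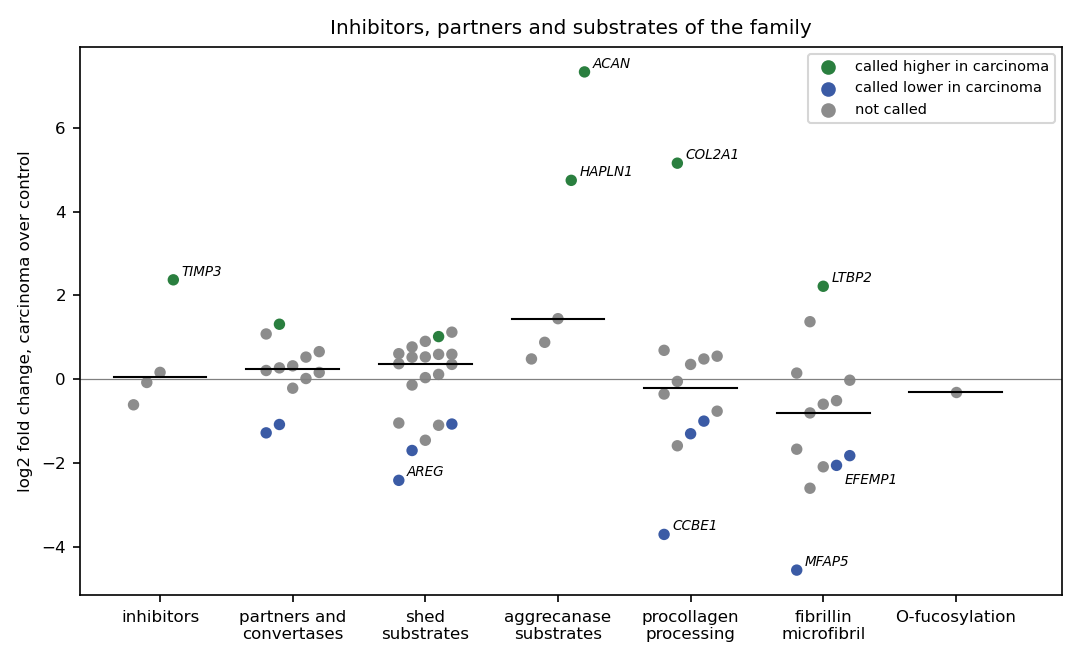
Log2 fold change (carcinoma over control) of the measured genes of 7 lists around the family, with 1 point per gene, colored by call, and a black line at each list's median. ACAN lies highest at 7.34 and MFAP5 lowest at −4.56, and the medians of the aggrecanase substrates and of the fibrillin microfibril genes are 1.44 and −0.81.

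The procollagen processing list also holds CCBE1 and VEGFC, which are not procollagen genes. Of its 12 genes, 1 rose, 3 fell, CCBE1 among them, and 8 were not called, with a median log2 fold change of −0.21. With the replicate block 4 fell, COL1A1 being gained (log2 fold change −1.67 with the block, and −1.59 with an adjusted p of 0.0943 without it). COL2A1, the cartilage collagen, rose at 5.16 (adjusted p = 0.00478), and COL3A1 fell at −1.30 (adjusted p = 0.0142). CCBE1, which assists ADAMTS3 in the activation of VEGFC for lymphatic growth, fell, with 9.01 and 7.73 CPM in carcinoma and 121 and 104 CPM in control (log2 fold change −3.71, adjusted p = 0.00177), beside the fall of the lymphatic markers given above. VEGFC itself lay the other way without a call, with 158 and 140 CPM in carcinoma and 102 and 82.3 CPM in control. Its log2 fold change by edgeR was 0.69 (adjusted p = 0.0460), under the fold asked of a call. TLL1, a procollagen C-proteinase, fell at −1.003 (adjusted p = 0.0123). Of 13 fibrillin microfibril genes, on which ADAMTS6, ADAMTS10, ADAMTS17 and several ADAMTS-like proteins act, 1 rose, 3 fell and 9 were not called, with a median of −0.81, and with the replicate block 2 rose and 6 fell. Over all genes, 9.86% were called without the block and 13.9% with it. FBN1, the main fibrillin gene, had 529 and 468 CPM in carcinoma and 1947 and 1594 CPM in control (log2 fold change −1.83, adjusted p = 0.00371). MFAP5 and EFEMP1 fell at −4.56 (adjusted p = 0.00209) and −2.06 (adjusted p = 0.0130), and LTBP2 rose at 2.22 (adjusted p = 0.00995). B3GLCT, the 1 measured gene of its list, which extends the O-linked fucose of thrombospondin repeats, was not called (log2 fold change −0.32, adjusted p = 0.243).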

How the data were processed

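Total RNA libraries (TruSeq Stranded Total RNA) of 4 pools were sequenced. The authors deposited whole-number counts per gene without normalization. Their methods name TopHat2 and HTSeq, and the submitters' processing notes name STAR, featureCounts and DESeq2. For the genome build and strand setting, not given in the sources used here, nothing was assumed. The deposited gene lengths, another column of the authors' tables, had a median ratio of 0.970 to the RefSeq span with introns. They lay within 20% of it for 64.8% of 9411 matched genes and for 23 of 27 members. The members outside were ADAM10 (0.702 times the span), ADAM15 (1.32), ADAM33 (6.22) and ADAMTSL5 (9.50).

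The counts were fitted by edgeR 4.0.16 under R 4.3.3 (filterByExpr, TMM, quasi-likelihood test, Benjamini-Hochberg over 11277 genes) and DESeq2 1.42.0 as an alternative. Standard errors were computed as the log2 fold change, unsigned, divided by the root of F. All genes passed the filter. The fits were tested on simulated counts drawn independently for each library, with no effect of pool. That test does not cover the paired pools. By the study's methods, pools of one number hold tissue of the same dogs, and over genes (not independent replicates) the correlation of their deviations was 0.782. Members with a call were given in full, all others with their levels, and of each list up to 4 called genes, besides TIMP1 to TIMP4, ACAN, VCAN and FBN1. Other genes (FURIN, B3GLCT, THSD4 and RefSeq neighbors) were added after their values were seen. The family, its groups and the lists were chosen with earlier results of these data known. Symbols and neighbors were taken from RefSeq (UU_Cfam_GSD_1.0). Alternatives were a replicate block, DESeq2, its size factors, other filters and leaving out each library.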

Additional observations from a re-analysis of the deposited data

How the results depend on the processing

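In the family, the 2 rises were called under all 8 alternatives that could change a value, and the falls numbered 7 to 9. Running no filter changed nothing, since all genes had passed it. DESeq2 called the same 10 members. ADAM12, ADAM19, ADAMTS1, ADAMTS5, ADAMTS15, ADAMTS17, ADAMTS19 and ADAMTSL3 kept their call in each of the 8, and ADAMTS9 and ADAMTS7 lost theirs when a library was left out, as given above. At least 10 counts in every library removed ADAMTS7 and ADAM18. When pool entered as a replicate block, all genes called higher numbered 800, against 521 without it, pathway genes called lower 17, against 11, and members called lower 9, against 8. Leaving out each library in turn gave 342 (without C1) to 509 genes called higher and 421 to 548 called lower over all genes. In members called lower it gave 7 to 8, and in pathway genes 6 to 8 called higher and 9 to 14 called lower. No called member changed sign. The log2 fold changes of ADAM15, ADAM17, ADAM28, ADAM33 and ADAMTSL1, not called, took both signs. The depth of T2, 3236218 counts, limits ADAMTS7, ADAM18, ADAMTS19 and ADAMTS20, where 1 count is 0.297 CPM.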

Other observations

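Some members differed between the pools in both tissues. The offset of pool 2 over pool 1 was over 0.5 on the log2 scale, with 1 sign in both tissues, for 6 members. The share of all genes with such an offset was not computed, so whether the count is particular to the family is not known. The pools differed both in dogs and in depth, which cannot be told apart here. ADAM15 was 3.07-fold higher in T2 than in T1 and 3.64-fold higher in C2 than in C1, ADAMTS7 2.00-fold and 2.12-fold, ADAMTS10 2.16-fold and 1.58-fold, ADAMTSL5 2.46-fold and 1.77-fold, and ADAM33 1.66-fold and 1.96-fold. ADAM18, with few counts, was lower in pool 2, at 0.650 and 0.326 of its level in pool 1. Spearman's rho between offset and span over the 27 members, taken without a count minimum, was −0.57 in carcinoma and −0.63 in control. Over the 6613 genes with a RefSeq span and 50 or more counts in each library it was −0.27 in each tissue. The sets were filtered differently, so their values are not directly comparable. These values run across genes that share the 4 libraries and carry no test.

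THSD4, whose protein is also known as ADAMTS-like 6 and whose symbol falls outside the naming rule, had 189 and 184 CPM in carcinoma and 159 and 162 CPM in control and was not called (log2 fold change 0.22, adjusted p = 0.245).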
